A study of Mus musculus with 8 samples.

Results

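The cytochrome P450 family 4 genes described here are a set of 9 genes chosen by name: Cyp4a10, Cyp4a12a, Cyp4a12b, Cyp4a14, Cyp4a31, Cyp4a32, Cyp4f14, Cyp4f15 and Cyp4v3. Their probes were found through the RefSeq accession that the array's annotation gives for each probe. By that rule 11 probes belonged to 8 of the 9 genes, Cyp4a32 had no probe of its own accession, and all 8 passed the filter on dim probes, out of 26556 genes and unnamed transcripts tested. RNA came from whole livers of mice aged 10 to 11 weeks, in 4 groups of 2 arrays: male wild type, male with a liver-specific Bcl6 deficiency, female wild type, and female with the same deficiency. Bcl6 is a zinc-finger repressor of transcription, and per its title the study asked how it bears on the difference between male and female liver. The deficient groups are called labelled knockout here. The sources used here name neither the strain nor the promoter that drove the deletion, and the labels name no other treatment in any of the 4 groups.

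CYP4 enzymes are monooxygenases of the endoplasmic reticulum that put a hydroxyl group on the terminal (omega) carbon of fatty acids and of eicosanoids. The alcohol is oxidised further to a dicarboxylic acid, which is activated and shortened in peroxisomes. In mouse liver the Cyp4a genes are textbook targets of the fatty acid receptor PPARA, while Cyp4a12a is known as a male-specific gene that depends on androgen and on the male pattern of growth hormone. Cyp4f enzymes inactivate leukotriene B4 and hydroxylate the side chains of vitamins E and K.

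Levels below are log2 signals relative to the 75th percentile of the same array, so 0 is that percentile and a difference of 1 is a doubling; they are compared only within 1 probe. A change was called at an adjusted p under 0.05 in limma (Benjamini-Hochberg over all 26556). An array had 59305 spots, of which 33677 to 36459 stood well above background and none was saturated; the number of arrays limits the precision. Sex and position on the slide cannot be told apart, since each of its rows held a single sex. The difference of the single Bcl6 probe, labelled knockout minus wild type, was above 0 and not called (0.81 ± 1.06 SE in males and 1.11 ± 1.06 in females, limma adjusted p = 0.676 and 0.556). It is unknown here if that probe lies in the deleted part, so it is no check of the genotypes, and every genotype direction below follows the labels. In whole liver, fewer cells of a type and less RNA per cell cannot be told apart. The summed signal of 9 hepatocyte markers lay between 12.5 and 12.7 on all 8 arrays. Nothing in the labels says that the 2 arrays of a group came from separate animals, so the p-values reflect spread that may be technical.

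In males labelled knockout, 5 of the 8 genes were lower than in wild-type males (Cyp4a12a, Cyp4a12b, Cyp4a14, Cyp4f15 and Cyp4v3) and none was higher, against 4.93% of all features called lower and 10.7% called in either direction. In females labelled knockout only Cyp4a31 was called, also lower, against 2.45% called lower and 5.93% in either direction. Between wild-type sexes, Cyp4a12a and Cyp4a12b were called higher in males, against 0.603% of all features called higher and 0.964% in either direction. Between the labelled knockout sexes no member was called, against 0.0828% of all features, and at an unadjusted p under 0.05 there were 2, Cyp4a12a and Cyp4f14, against 6.01% of all features. The knockout difference itself differed between the sexes for Cyp4a12a and Cyp4a12b, both more negative in males, against 0.102% of all features in that direction and 0.192% in either. The median difference over the 8 members was -0.86 in males and -0.55 in females, beside -0.036 and 0.0012 over all features.

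**Figure D1:**
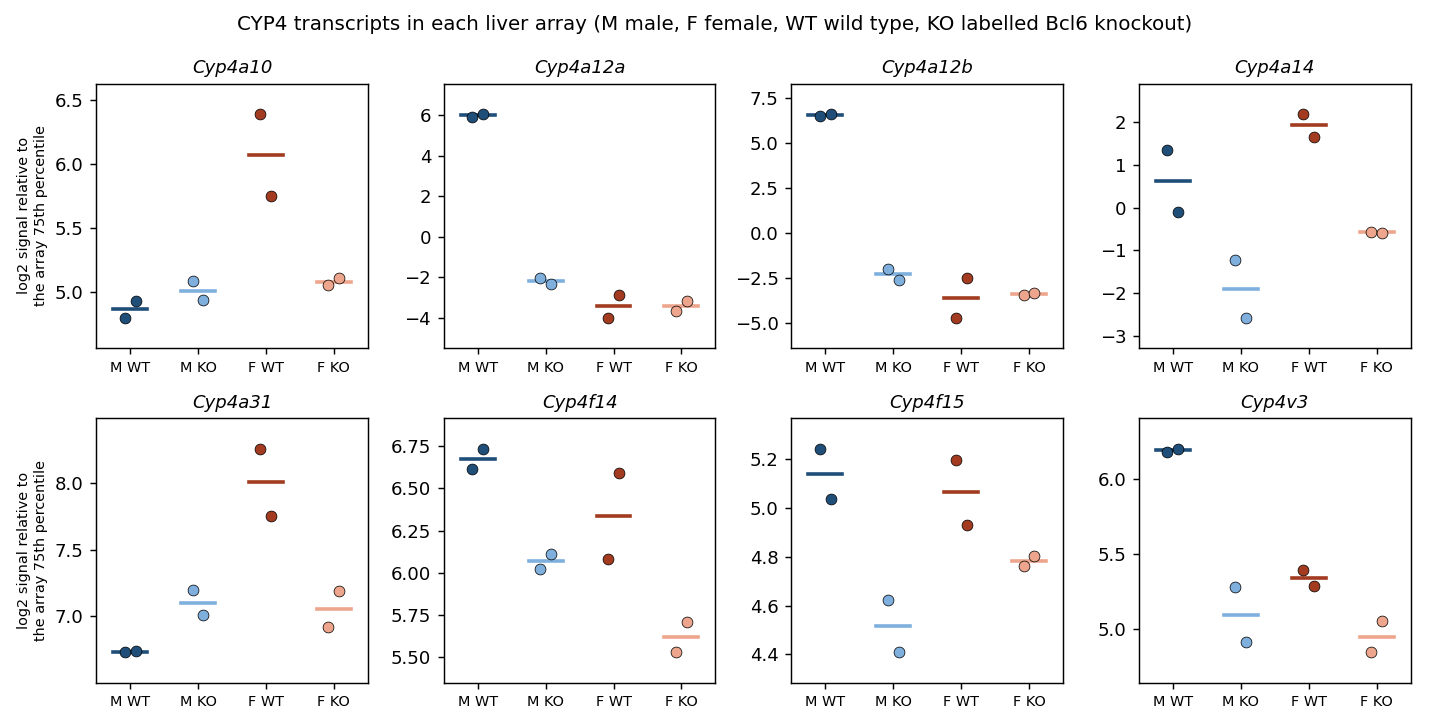
Log2 signal of the 8 CYP4 genes with a probe, relative to the array's 75th percentile (vertical axis, a separate scale for each gene), in the 4 groups on the horizontal axis; each point is 1 array and each line the mean of 2. Cyp4a12a and Cyp4a12b stood above 5.9 in both wild-type males and below -1.9 on the other 6 arrays, while Cyp4a10 and Cyp4a31 were highest in the wild-type females.

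Cyp4a12a (NM_177406, chromosome 4) encodes a hydroxylase of arachidonic acid, best known from male mouse kidney. Its level was 5.93 and 6.06 in the wild-type males, -2.03 and -2.35 in the males labelled knockout, -4.00 and -2.87 in wild-type females and -3.66 and -3.19 in females labelled knockout. The wild-type males stood apart from the other 6 arrays, and the males labelled knockout still lay above all 4 female arrays. The knockout difference in males was -8.18 ± 0.38 SE on the log2 scale, a fall of 291-fold (limma adjusted p = 0.000258). In females it was 0.013 ± 0.38 (95% interval -0.90 to 0.93, adjusted p = 0.987), and the difference between the 2 effects was -8.20 ± 0.53 (adjusted p = 0.0095). Wild-type males were 691-fold above wild-type females (9.43 ± 0.38, adjusted p = 0.000503). Between the labelled knockout sexes the excess in males was 1.24 (95% interval 0.32 to 2.15, adjusted p = 0.697). Over the alternatives that excess ran from 0.45 to 1.47. The male fall, the interaction and the wild-type male excess were called under all alternatives that gave a value.

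Cyp4a12b (NM_172306) is the neighbouring near-identical copy, so a probe for one may bind RNA of the other and the single genes are uncertain. Its level was 6.49 and 6.60 in the wild-type males, -1.98 and -2.60 in the males labelled knockout, -4.69 and -2.52 in wild-type females and -3.42 and -3.32 in females labelled knockout. Only the wild-type males were high, and 1 wild-type female array, the lowest of all 8, was not well above background. In males it fell by 8.84 ± 0.66 SE (459-fold, limma adjusted p = 0.00125), and the female difference was 0.23 ± 0.66 (95% interval -1.37 to 1.83, adjusted p = 0.856). Wild-type males exceeded wild-type females by 10.15 ± 0.66 (adjusted p = 0.00306). That excess was 9.07 without female wild-type replicate 1 and 11.24 without replicate 2, and it was not called when only those 2 groups were fitted (adjusted p = 0.0539). The interaction was -9.07 ± 0.93 (adjusted p = 0.0365), -7.99 without female wild-type replicate 1 and -10.16 without replicate 2. It lost its call without any 1 of the other 6 arrays. The 2 wild-type female arrays lay 2.18 apart, and leaving 1 of them out takes that gap out of the estimated spread. With normexp background correction the male differences were smaller, -6.69 for Cyp4a12a and -7.15 for Cyp4a12b, and the wild-type male excesses were 7.15 and 7.50.

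**Figure D2:**
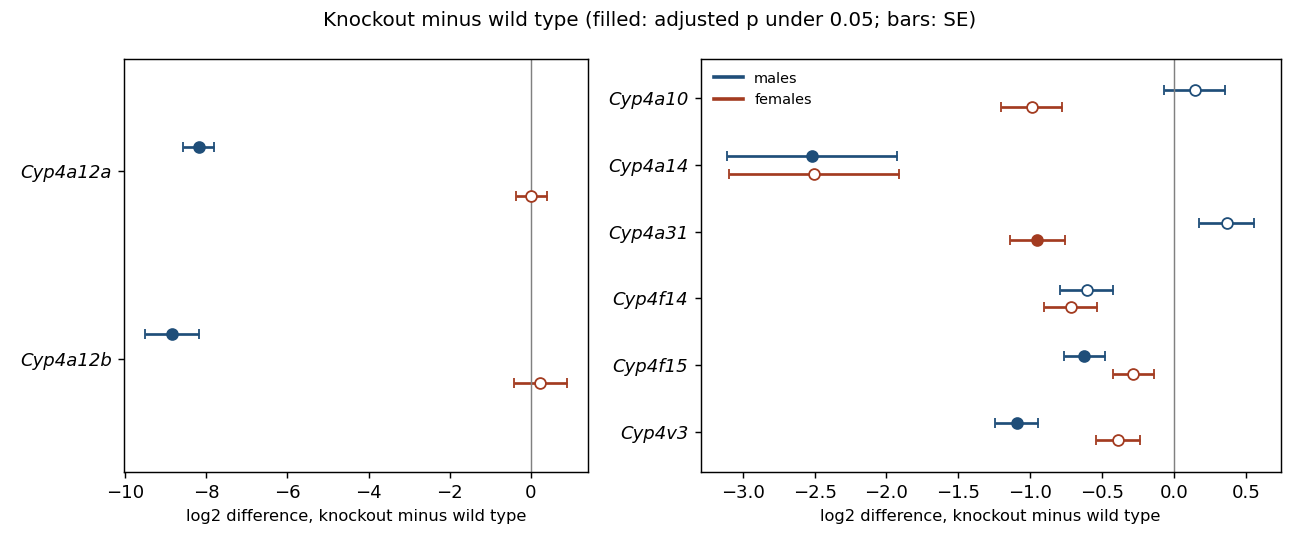
Log2 difference, labelled knockout minus wild type, for each gene in males (blue) and females (red), with Cyp4a12a and Cyp4a12b on their own scale at the left; bars are SE from the limma fit on 2 arrays a group, and filled points have an adjusted p under 0.05. The male points of Cyp4a12a and Cyp4a12b lie at -8.18 and -8.84 and their female points near 0, while those of Cyp4a14 lie together at -2.52 and -2.50.

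Cyp4a10 and Cyp4a31 encode close relatives in the same cluster on chromosome 4, known for hydroxylating lauric and other medium-chain acids, and Cyp4a32 is a further near copy without a probe of its own. Cyp4a10 (NM_010011) read 4.80 and 4.93 in the wild-type males, 5.08 and 4.93 in the males labelled knockout, 6.39 and 5.75 in wild-type females and 5.05 and 5.11 in females labelled knockout. Cyp4a31 (NM_201640) read 6.73 and 6.74, 7.20 and 7.01, 8.25 and 7.75, and 6.92 and 7.19 in the same order. Both were highest in the wild-type females, with no overlap with any other group, and the 2 labelled knockout groups overlapped.

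The female knockout difference was called for Cyp4a31 (-0.95 ± 0.19 SE, 1.93-fold lower, limma adjusted p = 0.0455) and missed the threshold for Cyp4a10 (-0.99 ± 0.21, adjusted p = 0.0532). Leaving out any 1 array other than female wild-type replicate 2 ended the Cyp4a31 call. Without that replicate the female difference was -1.31 for Cyp4a10. Without female wild-type replicate 1 it was -0.67 for Cyp4a10 and -0.70 for Cyp4a31, neither called (adjusted p = 0.0566 and 0.0789). In males the differences were 0.37 ± 0.19 for Cyp4a31 (95% interval -0.10 to 0.84) and 0.15 ± 0.21 for Cyp4a10 (-0.37 to 0.66), neither called. Wild-type males minus wild-type females gave -1.27 ± 0.19 for Cyp4a31 and -1.21 ± 0.21 for Cyp4a10 on the log2 scale, with adjusted p of 0.053 and 0.0691. The interactions were 1.32 ± 0.27 and 1.14 ± 0.30 (adjusted p = 0.268 and 0.379). Without female wild-type replicate 2 the sex differences were -1.52 and -1.53 and the interactions 1.57 and 1.46, for Cyp4a31 and Cyp4a10. Without female wild-type replicate 1 the sex differences were -1.02 and -0.89 and the interactions 1.07 and 0.82. The 2 wild-type female arrays lay 0.50 apart for Cyp4a31 and 0.64 for Cyp4a10. Leaving 1 of them out takes that gap out of the estimated spread, so a call made that way adds no support. Between the labelled knockout sexes the 95% intervals ran from -0.42 to 0.52 for Cyp4a31 and from -0.59 to 0.45 for Cyp4a10.

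These 2 genes were the only members with more than 1 probe, 3 for Cyp4a10 and 2 for Cyp4a31, and the 5 probes are not independent samples, since they read the same RNA and may bind each other's transcripts. The 3 Cyp4a10 probes gave female knockout differences of -0.99, -1.09 and -1.11, and male ones of 0.15, 0.0064 and -0.057. The 2 Cyp4a31 probes gave -0.95 and -1.08 in females and 0.37 and 0.10 in males. The probes of each gene thus spread over 0.12 (Cyp4a10) and 0.13 (Cyp4a31) in the female difference, and the male difference, which is small, changed sign for 1 of the 5. Over the 8 arrays the mean-centred profiles of Cyp4a10 and Cyp4a31 differed by a root mean square of 0.11, the smallest of any pair of members.

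**Figure D3:**
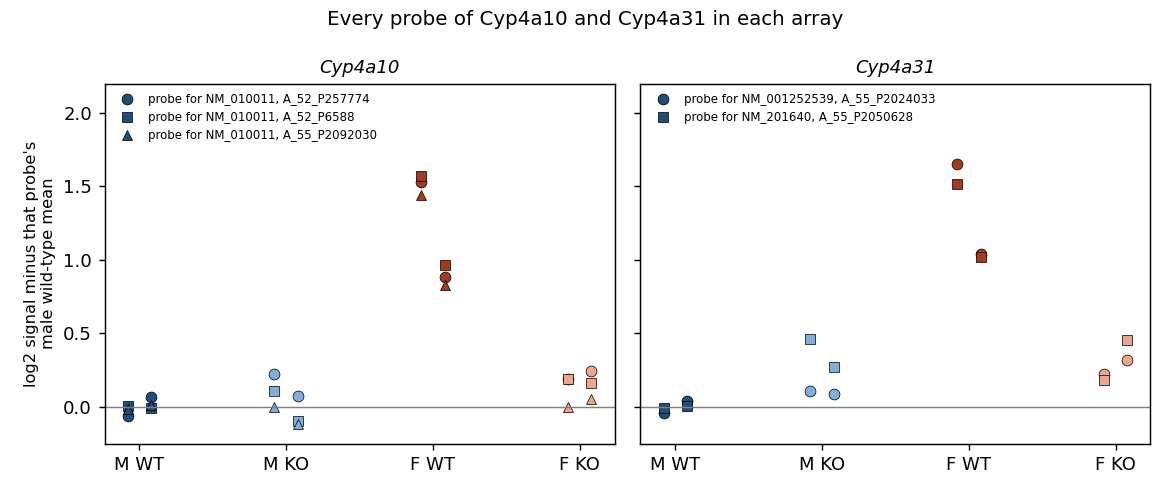
Log2 signal of every probe of Cyp4a10 (left) and Cyp4a31 (right) minus that probe's own wild-type male mean, by group; each marker shape is 1 probe and each point 1 array. On all 5 probes the wild-type female arrays are the highest, and those of the other 3 groups lie between -0.11 and 0.46.

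Cyp4a14 (NM_007822), the remaining PPARA target of the cluster, is known for fatty acid hydroxylation and for rising with fasting. It read 1.34 and -0.10 in the wild-type males, -1.23 and -2.57 in the males labelled knockout, 2.18 and 1.66 in wild-type females and -0.56 and -0.60 in females labelled knockout. In each sex both arrays labelled knockout were below both wild-type arrays, and in each genotype the females were above the males, with 1.43 between the 2 wild-type males. The knockout difference was called in males (-2.52 ± 0.59 SE, 5.73-fold lower, limma adjusted p = 0.0489) and was similar in females without passing the threshold (-2.50 ± 0.59, 95% interval -3.94 to -1.06, adjusted p = 0.0662). The interaction was -0.016 (95% interval -2.05 to 2.02). Leaving out any array but male wild-type replicate 2 (difference then -3.23) ended the male call. The difference was -1.80 without male wild-type replicate 1, -3.19 without male labelled knockout replicate 1 and -1.85 without its replicate 2. With normexp it was -1.54 in males and -2.05 in females, both called. Wild-type males minus wild-type females gave -1.30 ± 0.59 on the log2 scale (adjusted p = 0.317). It was -2.02 without male wild-type replicate 1 and -0.58 without replicate 2, called in neither case.

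The remaining 3 members lie elsewhere in the genome, Cyp4f14 and Cyp4f15 on chromosome 17 and Cyp4v3 on chromosome 8. The 250 bases before their start sites are shown because all 3 were lower in both labelled knockout groups (called only in males, for Cyp4f15 and Cyp4v3) and because RefSeq (GRCm38.p6) promoter sequence was at hand for them; of the other members only Cyp4a32 matched that table. Capitals mark the letters CCAAT on either strand, a box bound by the general factor NF-Y.
Cyp4f14, chr17:32917357-32917606, minus strand: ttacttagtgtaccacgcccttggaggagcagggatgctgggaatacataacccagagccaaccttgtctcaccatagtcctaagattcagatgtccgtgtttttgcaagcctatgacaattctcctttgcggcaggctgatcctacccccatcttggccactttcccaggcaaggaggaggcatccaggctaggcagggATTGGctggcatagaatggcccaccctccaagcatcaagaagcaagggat
Cyp4f15, chr17:32685409-32685658, plus strand: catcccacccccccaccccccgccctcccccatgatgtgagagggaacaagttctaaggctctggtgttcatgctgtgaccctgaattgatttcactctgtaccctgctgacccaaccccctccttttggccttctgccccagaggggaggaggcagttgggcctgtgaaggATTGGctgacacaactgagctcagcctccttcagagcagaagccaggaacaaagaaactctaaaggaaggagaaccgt
Cyp4v3, chr8:45333164-45333413, minus strand: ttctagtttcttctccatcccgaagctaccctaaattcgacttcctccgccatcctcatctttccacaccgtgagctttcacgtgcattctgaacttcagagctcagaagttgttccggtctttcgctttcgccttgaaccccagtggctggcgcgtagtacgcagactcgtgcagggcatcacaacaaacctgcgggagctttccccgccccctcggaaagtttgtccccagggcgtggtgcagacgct

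CCAAT stood on the strand opposite to the gene 50 bases before the Cyp4f14 start and 78 before the Cyp4f15 start, and it is in 37.4% of 32851 promoter windows of 300 bases (250 before to 50 after a start). The letters TTCNNNGAA, the palindrome read by STAT5 and BCL6, are in 8.3% of those windows on either strand and in none of these 3. Neither AGGTCA, the letters that PPARA and other nuclear receptors read in pairs (16.3% of windows), nor TATAAA (13.6%) was found in the 3 windows on either strand. Cyp4f14 has 4 start sites in the table, and the one shown lies farthest upstream.

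Cyp4f14 (NM_022434) encodes a hydroxylase of leukotriene B4 and of vitamin E. It read 6.62 and 6.73 in the wild-type males, 6.02 and 6.11 in the males labelled knockout, 6.08 and 6.59 in wild-type females and 5.53 and 5.71 in females labelled knockout. The labelled knockout arrays lay below the wild-type arrays in each sex, and the wild-type females lay 0.51 apart. The differences were -0.61 ± 0.18 SE in males and -0.72 ± 0.18 in females, neither past the threshold (limma adjusted p = 0.094 and 0.0794, 95% intervals -1.05 to -0.16 and -1.16 to -0.27). Leaving out a wild-type female array leaves the male difference unchanged and takes the gap of 0.51 out of the estimated spread. The female difference was -0.97 without female wild-type replicate 1 and -0.46 without replicate 2. Males exceeded females by 0.34 in wild type and by 0.45 in labelled knockout, not called.

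Cyp4f15 (NM_134127), also on chromosome 17, encodes a related hydroxylase of leukotrienes. It read 5.24 and 5.04 in the wild-type males, 4.62 and 4.41 in the males labelled knockout, 5.19 and 4.93 in wild-type females and 4.76 and 4.80 in females labelled knockout. The wild-type groups overlapped, and the labelled knockout arrays were lower in each sex. The male difference was called (-0.62 ± 0.14 SE, 1.54-fold lower, limma adjusted p = 0.047) and the female one was not (-0.28 ± 0.14, 95% interval -0.63 to 0.069, adjusted p = 0.284). Their difference, -0.34 ± 0.20, was not called either (adjusted p = 0.722). Leaving out 1 of the 4 male arrays, or of the 2 from females labelled knockout, ended the male call (adjusted p 0.09 to 0.212).

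Cyp4v3 (NM_133969) is the mouse counterpart of the human gene mutated in Bietti crystalline corneoretinal dystrophy and hydroxylates medium-chain and polyunsaturated fatty acids. It read 6.18 and 6.20 in the wild-type males, 5.28 and 4.92 in the males labelled knockout, 5.40 and 5.29 in wild-type females and 4.85 and 5.06 in females labelled knockout. The wild-type males were the 2 highest arrays, and the 2 labelled knockout groups overlapped. The male difference of -1.09 ± 0.15 SE (2.13-fold lower, limma adjusted p = 0.0105) lost its call only without male wild-type replicate 2 (adjusted p = 0.057). In females the difference was -0.39 ± 0.15 (95% interval -0.76 to -0.021, adjusted p = 0.182). Wild-type males were 1.80-fold above wild-type females (0.85 ± 0.15, adjusted p = 0.071), and the interaction was -0.70 ± 0.21 (adjusted p = 0.442).

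**Figure D4:**
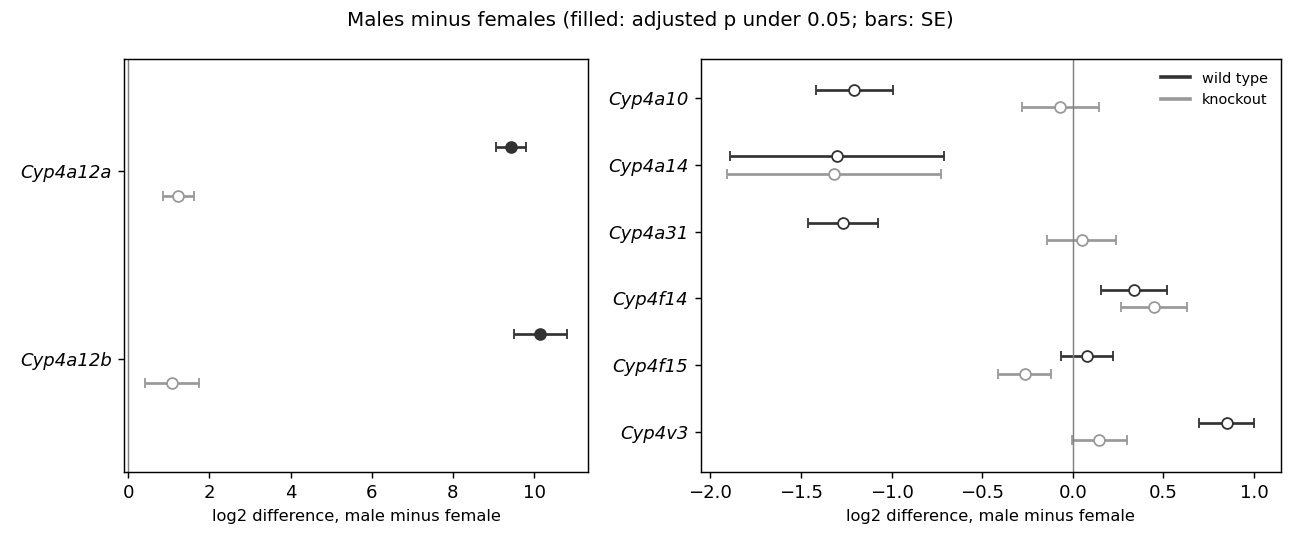
Log2 difference, male minus female, for each gene in wild type (black) and labelled knockout (grey), with Cyp4a12a and Cyp4a12b on their own scale at the left; bars are SE from the limma fit on 2 arrays a group, and filled points have an adjusted p under 0.05. Wild-type differences run from -1.30 for Cyp4a14 to 10.15 for Cyp4a12b, and labelled knockout ones from -1.32 for Cyp4a14 to 1.24 for Cyp4a12a.

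Read across the members, the arrays of the 2 genotypes did not overlap for all 8 genes in males, 6 of them lower in labelled knockout, and for 6 in females, all lower. Over all features, 62.0% did not overlap in males (34.6% lower) and 55.5% in females (27.6% lower). The sexes did not overlap for 7 genes in wild type and for 5 in labelled knockout, against 47.7% and 41.3% of all features. The knockout and sex comparisons share arrays, so their values are given side by side for each gene and no relation between them was computed.

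Of 12 other CYP4 genes, 11 were on the array and 6 were tested. Cyp4f17 and Cyp4f13 were lower in males labelled knockout (-0.69 ± 0.12 SE and -0.67 ± 0.14, limma adjusted p = 0.0188 and 0.0325). In females they differed by -0.38 and -0.40. No gene of that group was called in another comparison, and its median was -0.18 in males and -0.13 in females. The reductase Por, which hands electrons to every microsomal P450, differed by -0.041 ± 0.14 in males and -0.29 ± 0.14 in females, neither called. Among 5 electron transfer genes only Cyb5r3, which reduces cytochrome b5, was called, higher in labelled knockout in both sexes (0.68 ± 0.11 and 0.86 ± 0.11, adjusted p = 0.0187 and 0.0144). Cyb5a differed by 0.046 and -0.11, Cyb5b by -0.44 and -0.45, and Cyb5r1 by -0.45 and -0.39, in males and females, all uncalled. Of 7 tested alcohol and aldehyde dehydrogenases, which oxidise the omega alcohol, only Adh4 was called, 2.50-fold lower in males labelled knockout (adjusted p = 0.0166). In females Adh4 differed by -0.62 ± 0.21, not called (adjusted p = 0.146). Beside these counts, 4.93% of all features were called lower and 5.77% higher in males, and 2.45% and 3.48% in females.

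The next step, activation and peroxisomal shortening of dicarboxylic acids, was covered by 27 genes, all tested. In males labelled knockout 9 were lower and 3 higher, with a median of -0.29, and in females 7 were lower and 1 higher, with a median of -0.27. Over all features, 4.93% were called lower and 5.77% higher in males, with a median of -0.036, and 2.45% lower and 3.48% higher in females, with a median of 0.0012. Lower in both sexes were, among others, Pex11a, which divides peroxisomes (-1.04 ± 0.16 SE and -1.52 ± 0.16, limma adjusted p = 0.0139 and 0.00676), the very-long-chain acyl-CoA synthetase Slc27a2 (-0.79 and -0.65), Crot (-0.65 and -0.72) and Eci2 (-0.52 and -0.70). Lower in females was Ehhadh, the bifunctional enzyme needed for dicarboxylic acid breakdown (-1.01 ± 0.10, adjusted p = 0.00625); in males it differed by -0.29, which was not called. The 3 higher in males were the thioesterases Acot4 (2.35 ± 0.13, adjusted p = 0.000437) and Acot5 (1.25) and the peroxisomal transporter Abcd2 (3.26 ± 0.52, adjusted p = 0.016). Acot4 was also the 1 gene called higher in females (0.64 ± 0.13, limma adjusted p = 0.0436). Its interaction was called too (1.71, limma adjusted p = 0.039). Acot5 and Abcd2 differed by -0.14 and -0.20 in females, neither called. Acot4 and Ehhadh were the 2 of the 27 called lower in wild-type males than in wild-type females (-1.58 and -0.97).

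**Figure D5:**
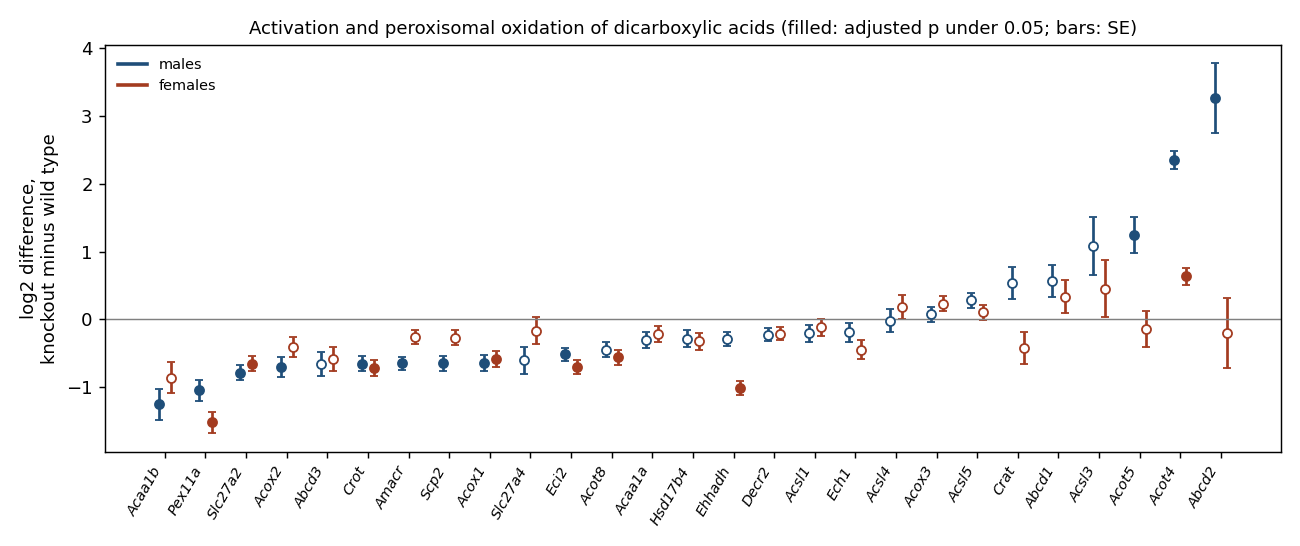
Log2 difference, labelled knockout minus wild type (vertical axis), for 27 genes of activation and peroxisomal oxidation of dicarboxylic acids, ordered by the male value, in males (blue) and females (red); bars are SE from the limma fit on 2 arrays a group, and filled points have an adjusted p under 0.05. Called genes number 12 in males and 8 in females, and Acot4, Acot5 and Abcd2 are the called ones above 0.

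Ppara itself differed by 0.089 in males and -0.57 in females, neither called (limma adjusted p = 0.712 and 0.0619). Of 29 genes for PPARA, its partners and targets, 3 were higher and 2 lower in males labelled knockout, and 4 were lower in females, with medians of -0.071 and -0.18, beside 5.77% higher, 4.93% lower and a median of -0.036 over all features in males and 2.45% lower and 0.0012 in females. In males the thioesterase Acot3 (4.91 ± 0.18 SE, adjusted p = 0.000217) and the fatty acid transporter Cd36 (2.55) rose and the retinol saturase Retsat fell by 2.11. Acot3 and Cd36 differed by 0.82 and 0.95 in females, neither called. Acot3 was lower in wild-type males than in wild-type females (-4.38, adjusted p = 0.000586), and its interaction was called (4.09, adjusted p = 0.0095). In females Acot1 (-2.09 ± 0.21, adjusted p = 0.00633), Retsat (-1.47) and the partner receptor Rxra (-0.61) fell. Acot1 and Rxra differed by -0.89 and -0.37 in males, neither called (adjusted p = 0.0531 and 0.077). Of the 19 regulators of sex-biased liver genes, the growth hormone receptor Ghr rose in both sexes (2.70 ± 0.10 and 3.11 ± 0.10), as did the prolactin receptor Prlr (3.36 and 2.43). The repressor Cux2 was not well above background on either wild-type male array. It was at least 109-fold higher in males labelled knockout than in wild-type males, a bound that was not itself tested. The limma adjusted p of 0.000175 belongs to the fitted male difference of 8.57, which rests on those dim wild-type values. In females labelled knockout Cux2 was 3.15-fold higher than in wild-type females (adjusted p = 0.024). In this group 4 genes were higher and 2 lower in males, and 3 higher and 1 lower in females, with medians of 0.14 and 0.30. All features had 5.77% higher, 4.93% lower and a median of -0.036 in males, and 3.48%, 2.45% and 0.0012 in females.

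Eicosanoids are the other substrates of CYP4 enzymes, and 24 genes for eicosanoid enzymes and receptors were tested. In each sex 6 were lower in labelled knockout and 1 was higher, with medians of -0.28 in males and -0.20 in females. The shares of all features were 4.93% lower and 5.77% higher in males (median -0.036) and 2.45% lower and 3.48% higher in females (median 0.0012). Among the arachidonate epoxygenases, Cyp2c54 differed by -1.95 in males and -2.25 in females, and Cyp2c50 by -1.99 and -2.60, all lower in labelled knockout, with limma adjusted p between 0.00106 and 0.00272. Cyp2c37 was lower in both sexes too (-1.65 and -2.11, adjusted p = 0.00334 and 0.00217). Cyp2c40 and Cyp2c29, named after their values were seen, differed by 1.36 and 0.12 in males and by -0.32 and -0.54 in females, none called. Cyp2u1, a hydroxylase of long-chain fatty acids, fell by 2.03 in males (adjusted p = 0.00558) and differed by 0.84 in females (adjusted p = 0.0945). Genes of the Cyp2c family are close enough in sequence for a probe to bind several, so single members are uncertain. Lta4h, the hydrolase that makes leukotriene B4, was the 1 gene higher in labelled knockout in both sexes (0.75 ± 0.16 SE and 0.85 ± 0.16, adjusted p = 0.0351 and 0.035).

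Some markers of other liver cells differed between the genotypes, and their part in the results was not tested. By comparison, 5.77% of all features were called higher and 4.93% lower in males, and 3.48% and 2.45% in females. No marker was called among 8 of Kupffer cells and macrophages, 5 tested of T and NK cells or 4 tested of neutrophils. The summed signal of 5 B and plasma cell markers was -0.34 to -0.040 in wild-type males against 1.14 to 1.16 in males labelled knockout, with 3 of 5 called higher, and 0.26 to 0.47 against 1.15 in females, with 1 of 5 higher. For 8 endothelial markers it was 6.28 to 6.34 against 6.70 to 6.74 in males, with 2 higher. In females the endothelial sum was 6.56 to 6.66 against 6.72 to 6.77, with no marker called. Of 7 stellate markers, Pdgfrb and Colec11 were called higher in males labelled knockout (0.67 and 0.57). In females they differed by 0.44 and 0.33, neither called. Lrat was called lower in females (-1.25) and differed by -1.01 in males, not called (limma adjusted p = 0.0527). Of 6 cholangiocyte markers only Prom1 was called, higher in each sex, and of 9 hepatocyte markers only Ttr, lower in each sex (-0.50 and -0.56). Of 4 erythroid markers 3 were tested and only Alas2 was called, lower in males (-1.49 ± 0.21 SE, limma adjusted p = 0.0119) and higher in females (1.59 ± 0.21, adjusted p = 0.0147). Of 4 pancreatic acinar markers Cela1 was lower in males labelled knockout, and Cpa1, Pnlip and Prss2 were not well above background on any array. Of 5 markers of kidney, which also expresses Cyp4a genes, Kap, Slc22a12 and Umod were not well above background on any array. Slc34a1 was well above it on all 8 arrays and was not called.

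The genes whose mean-centred profile over the 8 arrays lay closest to a called member are given with the root mean square difference, on arrays that share groups and scaling, as a description. For Cyp4a12a they were Nat8f5 (1.42), Nat8 (1.64) and Elovl3 (1.73), where Cyp4a12a itself varied by 3.95 about its mean. For Cyp4a12b they were Nat8f5 (1.59), Hsd3b5 (1.68) and Elovl3 (1.85), and Cyp4a12a and Cyp4a12b differed from each other by 0.40. Tenm3 (0.099) was closest to Cyp4a31, Dio3os (0.40) to Cyp4a14, Gpx1 (0.065) to Cyp4f15 and Cyp2d11 (0.12) to Cyp4v3. Among the 4 nearest genes on either side of each member, 2 could be tested beside the Cyp4a cluster, Cyp4b1 and Efcab14, and neither was called in any comparison. Beside Cyp4f14 and Cyp4f15 5 were tested and only Cyp4f13 was called, in males. Beside Cyp4v3 6 were tested, and Fam149a was lower in both sexes (-1.10 ± 0.11 SE and -0.92 ± 0.11, limma adjusted p = 0.00332 and 0.00988).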

How the data were processed

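The deposited intensity values of the 1-colour (Cy3) arrays are background-subtracted signals from Agilent's Feature Extraction software, in version 11.5.1.1 per the file headers and 9.1.3.1 per the submitters' processing notes. The median spot and background intensities, used for normexp (offset 50), are per the file headers too. The deposited value table holds log2 values: each array's equalled log2 of the processed signal minus a constant of 6.99 to 7.30, within 0.01 for 100% of probes, with no centring per gene.

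From the processed signals, log2 values minus each array's 75th percentile were computed, leaving out spots marked as outliers. Probes were kept if 1 or more groups had them well above background on both arrays (33586), and the brightest stood for its gene, giving 26556 features. The 4 group means were fitted over the 8 arrays with limma 3.58.1 under R 4.3.3, with 4 residual and 2.07 prior degrees of freedom and 5 contrasts. On simulated data the fit returned the sizes of added changes, which a difference of group means does by design. Changes as small as those of most members were not simulated.

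Named genes were all members, and genes chosen from up to 4 called genes with the smallest adjusted p from each list per contrast (all of a list of 5 or fewer), 4 neighbours on either side and the 3 closest profiles of each called member. Not every gene so allowed is named above. Those left out include Vnn1 (1.85) and Amacr (-0.65) in males and Plin5 (-0.94) in females, all called. Acot5, Abcd2 and Lta4h were named after their values were seen, to complete counts of 5 or fewer. In all, 16 alternatives were run. Members and lists were chosen with earlier results of these data known. Gene names came from the RefSeq list (GRCm38.p6); the array's annotation is on mm9. Single genes among close Cyp4a copies are uncertain.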

Additional observations from a re-analysis of the deposited data

Results flagged for a closer look

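For 2 members the knockout difference in males and that in females themselves differed in limma's interaction test. The interaction was -8.197 on the log2 scale for Cyp4a12a (adjusted p = 0.0095) and -9.074 for Cyp4a12b (adjusted p = 0.0365). Both genes fell in males labelled knockout and were already low in wild-type females, where 1 array was not well above background for Cyp4a12b. The 2 probes may bind each other's transcripts, so these are not independent observations.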

How the results depend on the processing

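The Cyp4a12a calls (male fall, wild-type male excess and interaction) and the male fall of Cyp4a12b held in all alternatives that gave a value, with Cyp4a12a between -8.35 and -6.69 in males; other calls came and went, and the cause was not tested. Cyp4a12b gave no value when a probe had to be well above background on all arrays. The members called numbered 1 in the female knockout comparison and became 4 with normexp, 2 with quantile normalization, 2 when probes of a gene were averaged, 3 with probes well above background on all arrays and 0 without the filter on dim probes. In the male knockout comparison 5 became 3 without that filter. Between wild-type sexes 2 became 5 with normexp and 1 with only the groups compared. For the interaction 2 became 1 without the filter, 1 with probes well above background on all arrays and 1 with the replicate block.

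Over the fits that left out 1 array, where a lone array was assumed to vary like the other groups, members called ranged from 3 to 5 (male knockout), 0 to 2 (female knockout), 2 to 4 (wild-type sexes) and 1 to 4 (interaction). Over all features the 2840, 1575, 256, 22 and 51 called in the order male knockout, female knockout, wild-type sexes, labelled knockout sexes and interaction ranged from 1077 to 2911, 562 to 1692, 86 to 1057, 11 to 217 and 80 to 531. Normexp called 2652 features in the female comparison, 615 between wild-type sexes and 10 between labelled knockout sexes. Without the filter on dim probes, which tests more features, 1225, 522, 99 and 16 were called for male knockout, female knockout, wild-type sexes and interaction. With only the groups compared, which fits fewer arrays, 395, 51 and 11 were called for female knockout, wild-type sexes and labelled knockout sexes. Asking for all arrays above background left 1 between labelled knockout sexes.

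Signs turned only for uncalled differences near 0. The Cyp4a14 interaction was 0.5036 with normexp and 0.01019 with quantile normalization, and ran from -0.7335 to 0.7005 when 1 array was left out. The Cyp4a31 difference between labelled knockout sexes was -0.06168 with the mean of its probes, and -0.08631 to 0.182 with 1 array left out. With 1 array left out, the same difference ran from -0.1458 to 0.004657 for Cyp4a10 and from -0.03605 to 0.3273 for Cyp4v3. The female knockout difference ran from -0.5527 to 0.5786 for Cyp4a12a and from -0.8552 to 1.321 for Cyp4a12b. The Cyp4f14 interaction ran from -0.1444 to 0.3654 and the Cyp4f15 wild-type sex difference from -0.05644 to 0.2076.

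The labels do not say if replicate numbers pair the samples, and the main fit used no pairing. Deviations of equal-numbered arrays correlated only weakly, between -0.00178 and 0.102, which does not settle if they share a pair or batch. With the replicate block 2465, 1252, 171, 17 and 25 features were called in the order above.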
